A study of Mus with 5 samples.

Results

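Binding of the retinoic acid receptor RARα and of the AP-1 family factor BATF was examined at 10 genes for gut homing receptors and integrin subunits in mouse CD8 T cells. The genes were Ccr9, Gpr15, Itga4, Itgb7, Itgae, Itgal, Itgb2, Itgb1, Itgav and Itga1, and a peak was taken when the gene assignment of the deposited annotation named 1 of them. Of 27480 peaks in 4 lists, 60 met this rule. They made up 5 of 1172 RARα control peaks, 2 of 597 RARα peaks with retinoic acid (RA), 33 of 15812 BATF control peaks and 20 of 9899 BATF peaks with RA.

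In ChIP-seq the DNA that a protein sits on is recovered with an antibody and sequenced, and a peak is a place where the recovered fragments pile up above a background library. The cells were wild-type (WT) primary CD8 T cells from spleen, labelled as naive before activation. All groups shared 24 h of activation through CD3 and CD28 with IL-2 and a rest of 24 h in IL-2 at 100 U/ml, after which the RA groups received 50 nM RA for 1 h and the control groups none. The labels name other interleukins (IL-7 to IL-10) in the treatment field, against IL-2 in the protocol. The study's methods name C57BL/6 and dLck-Cre mice as WT strains and give a range of ages and both sexes for its experiments in general, and do not say which mice, or how many, gave these libraries. Each list had been called on 2 pooled ChIP files against 1 common file from normal rabbit IgG, and whether the pooled files were separate cultures, and whether the IgG cells received RA, is not stated. The pools held 22655611 (RARα control), 22475060 (RARα with RA), 23110180 (BATF control) and 16424269 (BATF with RA) fragments, against 11410673 for IgG. With 1 list for each factor and condition there is no replicate spread, so no difference between control and RA was tested. The lists come from bulk chromatin, in which fewer bound cells and less binding per cell cannot be told apart.

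Chromatin at T cell genes served as a check of the labelled cell type. All 5 CD8 T cell genes examined (Cd3d, Cd3e, Cd3g, Cd8a and Cd8b1) carried a BATF peak of the promoter class in both BATF lists. None of 8 genes of other spleen cells (Cd4, Ms4a1, Cd79a, Lyz2, Csf1r, Itgam, Itgax and Ncr1) did in any list. BATF peaks of other classes were named for Ms4a1, Cd79a, Itgam and Itgax in control cells, and for all of these but Cd79a with RA. RARα peaks were named for Ms4a1, Itgam and Itgax in control cells. Of all protein-coding genes, 37.9% had a BATF promoter peak in control cells and 27.7% with RA. A peak is not expression, and this check says nothing of the purity of the cells.

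Lymphocytes reach the gut through a chemokine receptor that senses the tissue and an integrin that holds the vessel wall. CCR9 follows the chemokine CCL25 of the small intestine, GPR15 directs T cells to the large intestine, and the integrin α4β7 binds MAdCAM-1 on gut venules, while αEβ7 (CD103) holds T cells to E-cadherin on epithelium and LFA-1 (αL with β2) binds ICAMs on most cells. RA made in the gut is a known inducer of CCR9 and α4β7 in T cells. RARα, paired with an RXR, binds DNA with or without RA, and BATF binds AP-1 sites with JUN proteins and with IRF factors.

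RARα peaks were named for 4 of the 10 genes in control cells (Ccr9, Itgb7, Itgal and Itgb2) and for 2 with RA (Ccr9 and Itgal). Of 21900 protein-coding genes, 7.18% had at least 1 RARα peak in control cells and 3.19% with RA. BATF peaks were named for 9 of the 10 genes in both BATF lists, against 48.6% of protein-coding genes in control cells and 38.3% with RA, and the gene without a BATF peak was Itga1 in both. Counting only peaks within 10 kb of the gene, RARα reached 3 genes in control cells (background 3.31%) and 0 with RA (background 1.29%), and BATF 8 genes in control cells (41.5%) and 7 with RA (31.3%).

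**Figure D1:**
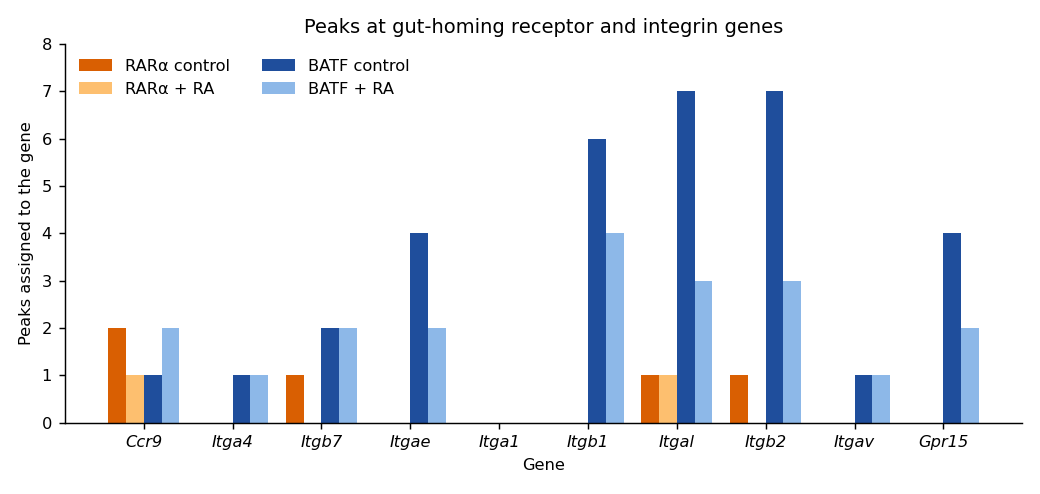
Number of peaks (vertical axis) assigned to each of the 10 genes (horizontal axis) in the 4 peak lists, with 1 bar for each list. Itgal and Itgb2 had the most BATF control peaks, 7 each, and Itga1 had no peak in any list.

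The 60 peaks fell into 36 separate sites. BATF was called in both conditions without RARα at 16 sites and in control cells alone at 15. RARα was called together with BATF at 4 sites: 2 sites at Itgb7 and Itgb2 with RARα in control cells and BATF in both lists, and 2 sites at Ccr9 and Itgal with RARα in both lists and BATF with RA alone. The remaining site held RARα of control cells alone, at Ccr9.

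**Figure D2:**
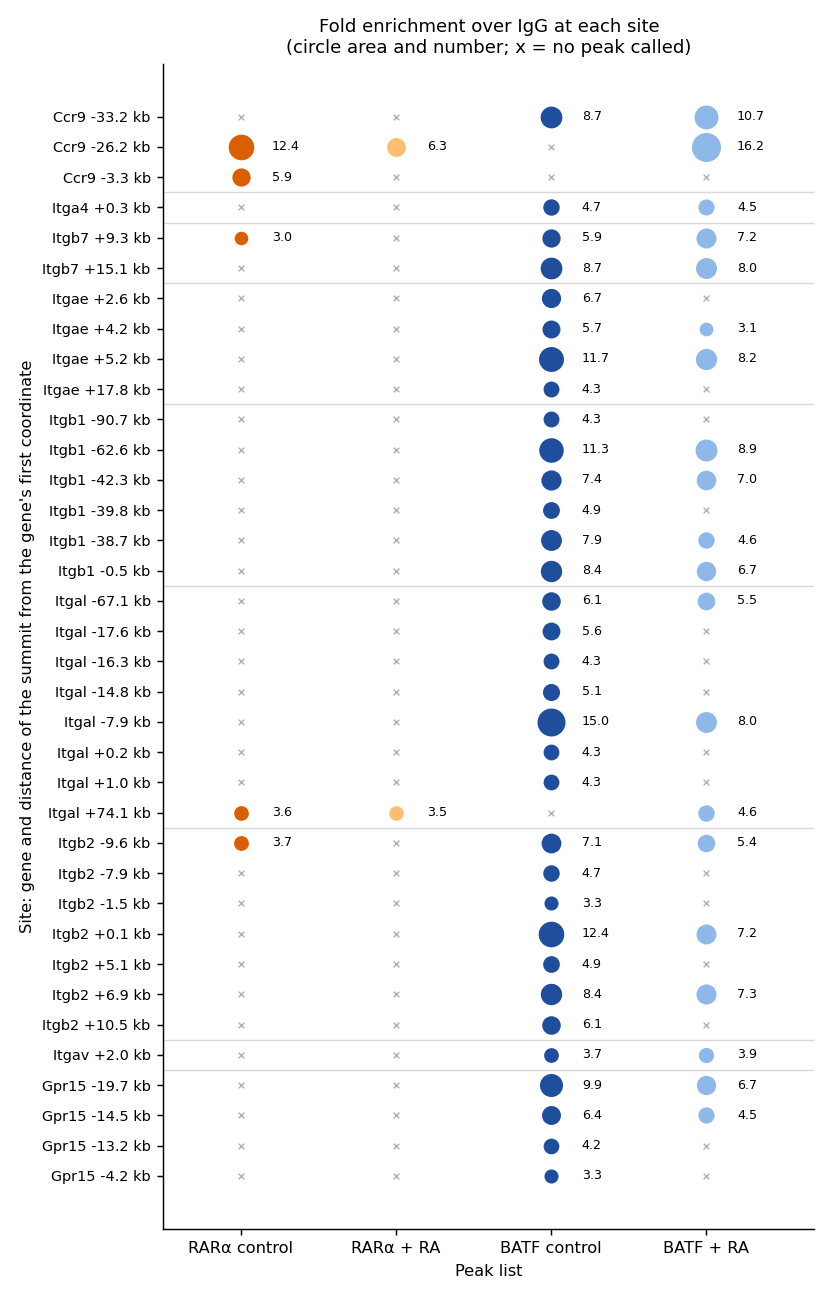
Each row is a site, given by its gene and by the distance of the summit from the first coordinate of the gene in kb, and each column a peak list. Circle area and the number beside it give the fold enrichment over IgG, and a cross marks that no peak was called. RARα circles appear at only 5 of the 36 sites, and at the Ccr9 site 26.2 kb before the gene the BATF circle with RA (16.2) faces a cross in control cells.

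Ccr9 held the strongest RARα peak of the set. Its gene spans chr9:123767211-123783457 (mm10). In control cells the RARα peak at chr9:123740751-123741293, 25.9 kb before the first coordinate of the gene and classed as intergenic, reached 47 fragments at the summit, for a fold enrichment over IgG of 12.4, rank 8 of 1172 by fold. With RA the RARα peak at chr9:123740704-123741132 covered the same place with 24 fragments and a fold of 6.32, rank 13 of 597. Set to the depth of each pool, in fragments per 1000000 fragments of the pool (FPM), the summit held 2.07 FPM in control cells and 1.07 FPM with RA. Fragment counts given without FPM are not set to depth, and the BATF pool with RA was shallower than the BATF control pool.

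At the same Ccr9 site BATF was called with RA and not in control cells. The BATF peak with RA at chr9:123740851-123741167 had 48 fragments and a fold of 16.2, and the nearest BATF control peak lay 6483 bp away. In the BATF control pool, which was the deeper one, a summit of 13 fragments (0.570 FPM, fold 3.50) would have passed the cutoff at this IgG level if the pile was wide enough to be kept, against the 2.92 FPM called with RA. The summits lay 26.2 kb before the first coordinate of the gene in all 3 lists. Of 9899 BATF peaks with RA, 371 (3.75%) had no control peak within 5 kb, and this peak ranked first of those 371 by fold. Of the 371, 24 (6.47%) overlapped a RARα control peak and 10 (2.70%) a RARα peak of both lists, the Ccr9 and Itgal sites among them. Of the 9528 BATF peaks with RA that had a control peak within 5 kb, 473 (4.96%) overlapped a RARα control peak. The IgG level under the peaks (2.88, 2.95 and 2.03 fragments, scaled to each pool) was the genome-wide background of each list, so no local IgG signal entered these folds.

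A further BATF site lay 32.8 kb before Ccr9. The control peak at chr9:123733812-123734368 had 51.4 fragments and a fold of 8.73. With RA it was called at chr9:123733926-123734436 with 48 fragments and a fold of 10.7. In FPM this was 2.25 in control cells and 2.92 with RA, a ratio of 1.30. The second RARα peak of control cells, at chr9:123763734-123764038, lay 3.17 kb before the gene with 22 fragments and a fold of 5.93. None of the other 3 lists had a peak there, although 9 fragments would have passed the cutoff in the RARα list with RA.

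The assignment to Ccr9 was shared with neighbours at every Ccr9 site. The annotation named 5 genes for each peak at the 2 distal sites and 6 for the proximal RARα peak, with Cxcr6 among them at each and Xcr1 at the proximal one, which also encode chemokine receptors. The protein-coding gene nearest to the 2 distal sites was Lztfl1, a gene of cilium transport, at 16187 bp from the BATF control peak and 23126 bp from the RARα control peak. Ccr9 was the nearest for the proximal RARα peak only.

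**Figure D3:**
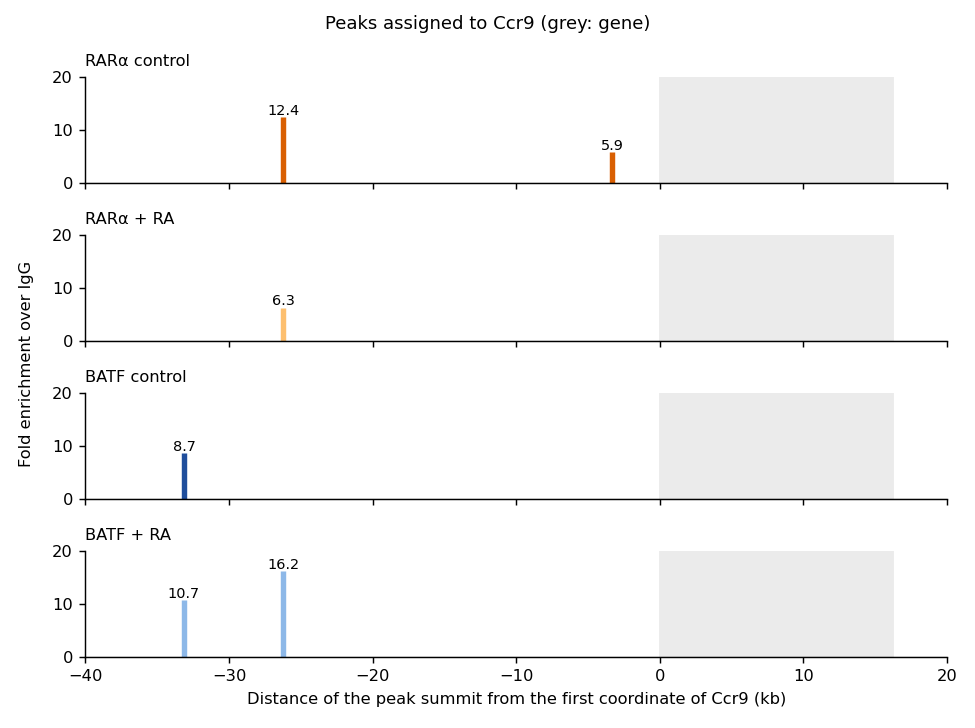
Fold enrichment over IgG (vertical axis, 1 panel for each list) of the peaks assigned to Ccr9 against the distance of the peak summit from the first coordinate of the gene in kb, with the gene in grey. At 26.2 kb before the gene RARα stands at 12.4 in control cells and 6.32 with RA, and BATF at 16.2 with RA alone.

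Gpr15 (chr16:58716643-58718872), the receptor of large intestine homing, had no RARα peak in either list. BATF was called at 4 places in control cells and 2 with RA, all intergenic and before the first coordinate of the gene. The peak of highest fold, at chr16:58696761-58697270 in control cells, 19.4 kb from the gene in an MLT1F repeat, had 48.4 fragments and a fold of 9.88. With RA it was called at chr16:58696719-58697222 with 25 fragments and a fold of 6.70, or 2.12 FPM in control cells and 1.52 with RA. The gene nearest to it was Cpox, an enzyme of haem synthesis, and each Gpr15 peak was assigned to 7 genes. The Gpr15 control peak with the most fragments was another, at chr16:58701803-58702473 (50.4 fragments, fold 6.42). With RA that place had 23 fragments and a fold of 4.51 (chr16:58701864-58702179). Its summit held 2.21 FPM in control cells and 1.40 with RA. The peak nearest to Gpr15, at chr16:58712264-58712683 (3.96 kb, fold 3.29), was called in control cells only, and its fold was the lowest of the BATF control peaks of the set, shared with a peak at Itgb2. Scaled to the depth of the RA pool, both would have had a -log10 p of 4.60 and would not have passed the cutoff of 1e-05.

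The 2 genes of α4β7 carried BATF at their promoters in both conditions. At Itga4 (chr2:79255426-79333114), the α4 chain, the sole peak in each list was of the promoter class and lay in the first intron. It had 22.7 fragments and a fold of 4.67 in control cells (chr2:79255370-79256476), and 14 fragments and a fold of 4.46 with RA (chr2:79255862-79256123). Its summit held 0.995 FPM in control cells and 0.852 with RA. No RARα peak was assigned to Itga4. At Itgb7 (chr15:102215994-102233405), the β7 chain, the promoter peak was broad, with 85.9 fragments and a fold of 8.69 in control cells (chr15:102230090-102232463) and 59 fragments and a fold of 8.02 with RA (chr15:102230641-102231734). In FPM this was 3.76 and 3.59, the highest BATF level of the set in each condition.

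Itgb7 also had the only RARα peak that lay inside 1 of the 10 genes. The RARα control peak at chr15:102225062-102225437, in an intron and on an ERVK long terminal repeat (RLTR20C1_MM), had 14 fragments and a fold of 3.02. It does not pass a q-value of 0.05. No RARα peak was called there with RA. A summit of 13 fragments would have passed the cutoff at the IgG level of 5.00 under the overlapping BATF control peak. The level under the RARα control peak was 3.97, at which fewer fragments would have been needed. BATF covered the place in both lists, with 34.6 fragments and a fold of 5.93 in control cells (chr15:102224715-102225597) and 27 fragments and a fold of 7.22 with RA (chr15:102225037-102225456).

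Itgae (chr11:73090505-73147449), the αE chain that pairs with β7, had no RARα peak. BATF was called at 4 places in control cells and 2 with RA, all inside the gene. The strongest, in the first intron, had 57.3 fragments and a fold of 11.7 in control cells (chr11:73095375-73096099) and 31 fragments and a fold of 8.25 with RA (chr11:73095425-73095814). Its summit held 2.51 FPM in control cells and 1.89 with RA. The sole Itgae peak of the promoter class, at chr11:73092955-73093265 (24.7 fragments, fold 6.65), was called in control cells only. An RA peak of the intron class lay 1371 bp from it. A second-intron peak at chr11:73108040-73108369 (15.8 fragments, fold 4.35) was also called in control cells only, with no RA peak within 5 kb. The Itgae span further holds a BATF peak in each list that the annotation gives to the promoter of Gsg2, a kinase gene nested in Itgae, with folds of 2.66 and 2.51, and these were not counted for Itgae.

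Itgal and Itgb2, which encode the chains of LFA-1, had 7 BATF control peaks each, and 3 each with RA. Of the 10648 protein-coding genes with a BATF control peak, the median had 1 and 3.82% had at least 7. Within 10 kb of the gene, Itgb2 kept all 7 control peaks and Itgal 3, against 4 at Itgae. The other 4 at Itgal lay nearer to Septin1 or Sephs2, and the 5 intergenic ones were each assigned to 11 to 13 genes. Itgal (chr7:127296139-127335137) held the highest BATF control fold of the set. That peak, at chr7:127288022-127288664, 7.47 kb before the gene and classed as intergenic, had 74.1 fragments and a fold of 15.0, rank 585 of 15812, and was assigned to 13 genes, of which Itgal was the nearest protein-coding one. With RA the peak at chr7:127288046-127288466 had 30 fragments and a fold of 7.99, or 1.83 FPM against 3.25 in control cells.

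No BATF peak was called at the Itgal promoter with RA. In control cells 2 promoter-class peaks stood there, at chr7:127295941-127296683 (46.4 fragments, fold 4.31) and chr7:127297077-127297393 (fold 4.30), and the nearest RA peaks were 7475 bp and 8611 bp away. Scaled to the depth of the RA pool, the first of them would have had a -log10 p of 12.4 and the second 6.20, both past the cutoff. The control peak of highest fold at Itgal without an RA peak within 5 kb was another, at chr7:127278401-127278726 (21.7 fragments, fold 5.62), 17.4 kb before the gene and nearer to Sephs2.

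Past the other end of Itgal lay the second of the 2 sites at which RARα was called in both lists. RARα had 13 fragments and a fold of 3.61 in control cells (chr7:127369977-127370339) and 13 fragments and a fold of 3.54 with RA (chr7:127369934-127370341). BATF was called with RA only, with 13 fragments and a fold of 4.63 (chr7:127370089-127370320). These are small piles near the smallest that the caller accepts, and neither RARα peak passes a q-value of 0.05. The site is 34.8 kb from the gene, lies on an ERVL-MaLR repeat (MTA_Mm-int), is assigned to 9 genes, and is closest to Zfp747. The BATF peak counts as having no control peak within 5 kb by a narrow margin, and ranked 173 of the 371 such peaks by fold.

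**Figure D4:**
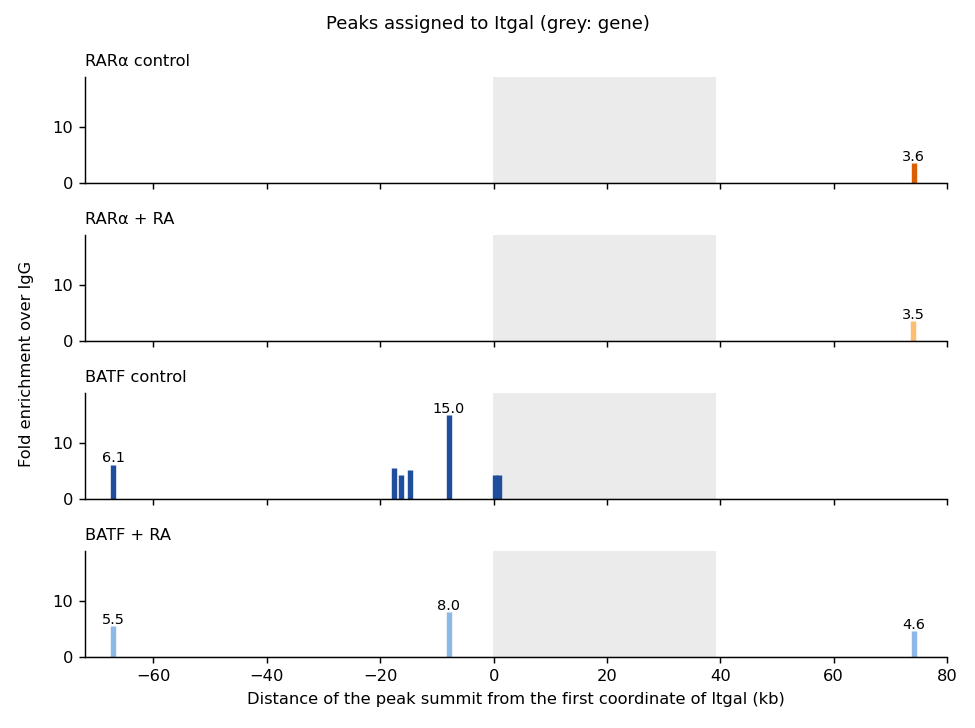
Fold enrichment over IgG (vertical axis, 1 panel for each list) of the peaks assigned to Itgal against the distance of the peak summit from the first coordinate of the gene in kb, with the gene in grey. Numbers stand above peaks that are clear of their neighbours, and with RA the BATF peaks nearest the gene, other than the one at 7.99, are missing.

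Itgb2 (chr10:77530329-77565708), the β2 chain, had its BATF control peak of highest fold at the promoter. It had 61.2 fragments and a fold of 12.4 in control cells (chr10:77529736-77532362), and 32 fragments and a fold of 7.18 with RA (chr10:77529930-77531769). Its summit held 2.68 FPM in control cells and 1.95 with RA. With RA a peak in the first intron, at chr10:77537059-77537391, had the highest fold by a small margin, with 22 fragments and a fold of 7.28, against 35.5 fragments and a fold of 8.39 there in control cells (chr10:77537030-77538040). RARα was called 9.40 kb before the gene in control cells, at chr10:77520609-77520930, with 21 fragments and a fold of 3.69. BATF covered that place with 41.5 fragments and a fold of 7.08 in control cells (chr10:77520556-77521249) and 24 fragments and a fold of 5.44 with RA (chr10:77520572-77521039). A neighbouring BATF control peak at chr10:77522185-77522719 (29.6 fragments, fold 4.70) had no overlapping RA peak. RARα was not called at Itgb2 with RA, where 13 fragments, a fold of 2.36, would have passed. The nearest protein-coding gene to this RARα site was Fam207a.

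The 3 subunits of wider use had no RARα peak. Itgb1 (chr8:128685654-128733579), the β1 chain shared by many integrins, had 6 BATF control peaks and 4 with RA. Its peak of highest fold lay 62.4 kb before the gene, with 42.5 fragments and a fold of 11.3 in control cells (chr8:128622898-128623233) and 27 fragments and a fold of 8.86 with RA (chr8:128622885-128623123). At the Itgb1 promoter the fold was 8.36 in control cells (43.5 fragments, 1.90 FPM) and 6.72 with RA (27 fragments, 1.64 FPM). The peak at chr8:128594860-128595405 (fold 4.35), 90.2 kb from the gene and nearer to Nrp1, was called in control cells only. Itgav (chr2:83722303-83806917), the αv chain, had 1 promoter peak in each list, with 24.7 fragments and a fold of 3.67 in control cells (chr2:83724166-83724872) and 17 fragments and a fold of 3.91 with RA (chr2:83724287-83724679). Itga1 (chr13:114958079-115101964), the collagen-binding α1 chain, was named by no peak. Its closest BATF control peak, assigned to Itga2, was 61806 bp away, and the RA list had a peak of 14 fragments (fold 4.96) inside the Itga1 span at the promoter of Pelo, a nested gene.

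The classes of the BATF peaks depended on how far from a gene a peak was taken. In control cells 9 of 33 were promoter peaks, 6 intron, 1 exon and 17 intergenic, against list-wide shares of 58.7% promoter and 18.1% intergenic. With RA the counts were 5 promoter, 4 intron and 11 intergenic of 20, against 64.6% and 16.2%. Within 10 kb of the gene the control peaks were 9 promoter and 4 intergenic of 20, and the RA peaks 5 promoter and 2 intergenic of 11. Counting only peaks whose nearest protein-coding gene is in the set, they were 9 promoter and 8 intergenic in control cells and 5 of each with RA. A promoter peak was present at 7 of the 10 genes in control cells (background 37.9%) and at 5 with RA (27.7%). The genes of this set that had a promoter peak in control cells and none with RA were Itgae and Itgal. At Itgae an RA peak of the intron class lay 1371 bp from the promoter peak, within the 5 kb that counts as shared. Median fold was 5.93 over the 33 control peaks and 6.84 over the 20 RA peaks, against 5.40 and 5.29 over all peaks of the lists. No test was run on these shares, since the genes were chosen with results of these data known.

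Of the 33 BATF control peaks, 25 (75.8%) had an RA peak within 5 kb, against 69.9% of all BATF control peaks, and 18 (54.5%) overlapped one, against 54.4%. In the other direction 18 of 20 RA peaks (90.0%) had a control peak within 5 kb, against 96.3%. Where BATF was called in both conditions the control fold had a median of 8.14 (3.67 to 15.0, 18 sites), and at the 15 sites of control cells alone it had a median of 4.35 (3.29 to 6.65). The BATF pool with RA was the shallower, and the p-value was recomputed for each control-only site at that depth. At 13 of the 15 sites the control level would still have passed the cutoff, and at 2 it would not. Of the 7207 control peaks with no overlapping RA peak in the whole list, 87.5% would have passed.

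Fold enrichment of BATF was lower with RA at 15 of the 18 overlapping pairs (83.3%), against 75.5% of the 8605 overlapping pairs in the whole lists. The median ratio of RA to control was 0.796, against 0.827. It was higher with RA at the distal BATF site of Ccr9, in the Itgb7 intron and at the Itgav promoter. In FPM 15 of the 18 were also lower, against 77.1% of all overlapping pairs. On that scale the Itgav promoter was among the lower ones (1.08 in control cells and 1.04 with RA). The Itgb1 site at chr8:128642995-128643633 was higher (1.25 and 1.28). With the pileup over the IgG level and no added constant, 13 of the 18 were lower, against 66.9% of all overlapping pairs. With pairs within 5 kb, 17 of 25 were lower (68.0%, Wilson 95% interval 48.4 to 82.8), against 66.9% over all pairs. The 25 pairs hold only 18 different RA peaks, so they are not independent and the interval is too narrow even for counting error. RARα was lower with RA at both of its pairs, Ccr9 and Itgal, against 68.3% of 120 pairs. The ratio was 0.511 at Ccr9 and 0.982 at Itgal. The Itgal summit held 0.574 FPM in control cells and 0.578 with RA, so its direction turns with the scale.

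**Figure D5:**
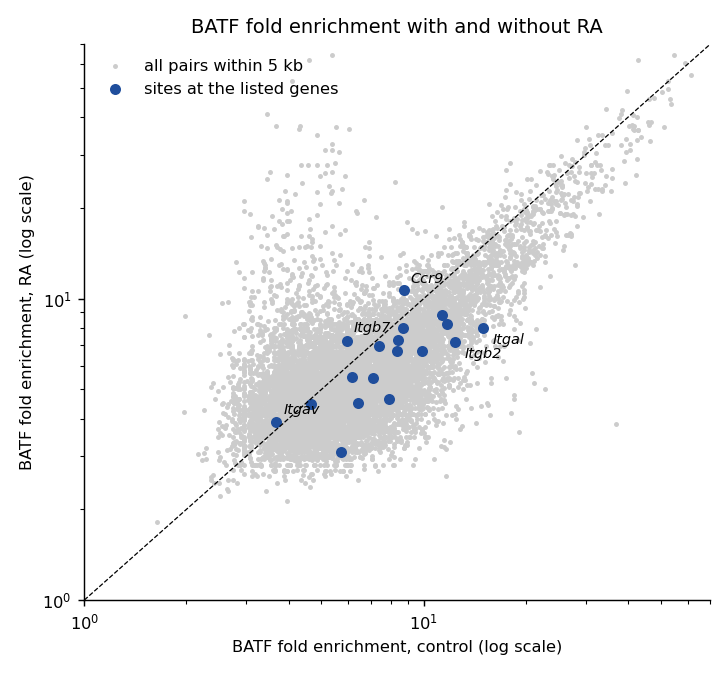
BATF fold enrichment in control cells (horizontal axis, log scale) against that with RA (vertical axis, log scale). Blue points are the 18 sites of the set at which the 2 peaks overlap, grey points are all pairs within 5 kb, and the dashed line marks equal values. Of the blue points 15 lie below the line, and the Ccr9, Itgb7 and Itgav sites above it.

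The overlap of RARα with BATF was compared within each condition. Of the 5 RARα control peaks 2 had a RARα peak with RA within 5 kb, against 10.2% of all RARα control peaks, and both RARα peaks with RA had a control peak, against 19.6%. In control cells 2 of 5 had a BATF control peak within 5 kb, against 61.9% of all RARα control peaks. With RA both had a BATF peak within 5 kb, against 16.4% of all. Across conditions 4 of the 5 RARα control peaks had a BATF peak with RA within 5 kb (54.3% of all), and 0 of the 2 RARα peaks with RA had a BATF control peak (16.2%). At the Itgal site this turned on a few bases. The nearest BATF control peak lay 5004 bp from the RARα control peak and 5002 bp from the RARα peak with RA. Of 99 RARα control peaks that an RARα peak with RA overlapped, 58 were overlapped by a BATF peak with RA, and 10 of those had no BATF control peak within 5 kb, Ccr9 and Itgal among them.

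Other integrin genes and their regulators were counted from a list of 46. RARα was named at 9 of them in control cells, 19.6% against the 7.18% background, and at 0 with RA against 3.19%. BATF was named at 30 in control cells (65.2% against 48.6%) and 27 with RA (58.7% against 38.3%). Within 10 kb of the gene, RARα was named at 5 of the 46 in control cells (background 3.31%) and 0 with RA, all 5 of them activation or adaptor genes. The genes with RARα were the subunits Itga5, Itgam and Itgax, the small GTPase Rap1a, the Ras exchange factor Rasgrp1, the adaptor Fyb, the kinase Stk4, and Cytip and Cyth1, which bind each other and act on LFA-1 adhesion. Itgam and Itgax shared 1 peak. Their RARα folds ran from 2.50 at Cytip to 4.27 at a distal Rasgrp1 peak, below both Ccr9 peaks. By class, RARα was named in control cells at 6 of 20 activation and adaptor genes, 3 of 18 other subunits (0 within 10 kb) and 0 of 8 ligands. BATF was named at 18 of the 20 activation and adaptor genes in both conditions, with 119 peaks in control cells and 68 with RA, and the genes with the most control peaks were Cyth1 (18 in control cells, 9 with RA), Rhoh (17 and 11) and Fyb (15 and 4).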

How the data were processed

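RARα and BATF ChIP-seq peaks of mouse CD8 T cells with and without RA were analysed. The submitters' processing notes name Bowtie2, MACS2 and HOMER, and the file headers MACS 2.2.7.1. The authors removed duplicates and called peaks on mm10 (effective genome size 1870000000 bp) with p cutoffs of 0.001 (RARα lists) and 1e-05 (BATF lists), and assigned genes and a class to each peak. The deposited pileup is a signal, the fragments at the summit, scaled by 0.9875 in the BATF control list alone, which was undone in values per depth (FPM). The deposited fold enrichment is a ratio, the pileup plus 1 over the IgG level plus 1, so the IgG level was recovered from it. The deposited p-values and q-values are on the -log10 scale. The headers say that q-values were not calculated, and these served only as an alternative threshold.

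Peaks were selected by gene symbol, and distances were taken from RefSeq gene positions on GRCm38.p6, to which mm10 corresponds. Peaks within 5 kb counted as shared, following the study's methods. Peaks of any list that overlapped were joined into a site. Where no peak was called, the smallest summit that passes the cutoff was computed from the highest IgG level among the lists called there. The p-values had first been recomputed to within 0.01 for at least 99.8% of peaks in each list. Peak numbers in the lists are not continuous, but no number is missing between the first and last peak at any of the 10 genes. No test was run, since pooling left 1 list per condition. Intervals are Wilson 95% intervals and cover at most counting error, since they take peaks and pairs as independent. The overlap step was tested on simulated data, in which all 300 planted shared peaks were found.

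Named were all 10 genes, every RARα peak at them and, for BATF, the peak of highest fold for each gene and list, peaks within 5 kb of a RARα peak, and at each gene the control peak of highest fold without an RA peak within 5 kb, and RA peaks without a control peak. Other peaks were named after their values were seen (the promoter peaks of Itgal, Itgae and Itgb1, a second distal Itgb1 site and another Gpr15 site). The genes and lists were chosen with earlier results of these data known. Alternatives were stricter p, q and fold thresholds, other distances, peaks within 10 kb and the nearest gene. 1 of the marker genes is not reported here. Motifs and sequences were not analysed here, as no genome was used. Software was Python 3.11.15 with scipy 1.17.1, pandas 2.3.3, matplotlib 3.10.9 and numpy 2.4.6.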

Additional observations from a re-analysis of the deposited data

Results flagged for a closer look

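At the Ccr9 site 26.2 kb before the gene, RARα fold enrichment was 12.4 in control cells and 6.32 with RA, whereas BATF was called with RA alone, at 16.2. At the site past the end of Itgal, RARα fold was 3.61 in control cells and 3.54 with RA, whereas BATF was called with RA alone, at 4.63. Both stand out because the RARα fold was lower with RA while the BATF peak was present with RA only, though at Itgal the RARα summit held 13 fragments in both lists and its FPM was 0.574 in control cells and 0.578 with RA. With 1 pooled list per condition the difference was not tested.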

How the results depend on the processing

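Of 71 recomputed values for 16 results, 51 stayed within 1.5 times the reported count or, for a share, within its Wilson 95% interval. The other 20 moved beyond that, and a reversal of direction was not scored. With so few RARα peaks those intervals are wide: they held RARα pairs lower with RA at 50.0% in FPM against 100% and, at stricter p cutoffs, RARα peaks near BATF at 50.0% with RA (against 100%) and 25.0% in control cells (against 40.0%). BATF control peaks numbered 23 at the stricter p and 25 when merged within 1 kb, against 33. RARα control peaks fell from 5 to 3 at a q-value of 0.05, 2 at a fold of at least 5, 3 within 10 kb and 2 where the nearest protein-coding gene is in the set (an alternative chosen after seeing the data), and the genes with one from 4 to 2, 1 and, by nearest gene, 2. RARα peaks with RA fell from 2 to 1, 1, 0 and 0 under the same settings, and the genes with one from 2 to 1, 1, 0 and 0. BATF control peaks fell from 33 to 20 at a fold of at least 5 and 20 within 10 kb, and BATF peaks with RA from 20 to 11 within 10 kb. The share of BATF control peaks shared with RA moved from 75.8% to 54.5% for overlap by 1 bp, and the share of BATF pairs lower with RA from 68.0% to 83.3% for overlapping pairs. These settings keep fewer peaks or pairs by construction. The planned motif alternative was not run, as no genome was used. No paired analysis was possible because each condition has 1 pooled list. A summit of 9 to 25 fragments was needed for a call at these sites, depending on the list and on the highest IgG level there. Weaker binding was not detectable.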
